A study of Mus musculus with 12 samples.

Results

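Offspring that were themselves given WD were compared by the diet of their mothers: 3 libraries of WD offspring of WD mothers (WD_WD) against 3 libraries of WD offspring of CD mothers (CD_WD). These are 6 of the 12 libraries of the series, and all 10655 genes of the deposited table were tested. Each library is SMART-seq RNA sequencing, a full-length protocol, of mouse aortic endothelial cells, the cells that line the aorta. A title joins 2 diets, and the first was read as the mother's because the series text writes the same groups in that order. The labels do not spell out CD and WD; high-fat feeding of mothers and atherosclerosis of their offspring are named in the title of the series. Both groups compared here had received WD again for 4 weeks, per the series text. The labels state no genotype, strain, sex, age, sorting step or batch, so any such factor is as unknown in CD_WD as in WD_WD. Nor do they say whether replicates are separate animals, so p-values measure only how far the libraries of the series spread within their groups, and that spread may be technical. CD_WD replicate 1 holds another mixture of cell types than the other 5 libraries. Counts of called genes and list medians are given with it and without it, and fold changes of single genes in 1 fit or in both.

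Atherosclerosis is a disease of the arterial wall in which lipoproteins enter below the endothelium and are taken up by macrophages. Macrophages that store this lipid are called foam cells; they express genes of lipid binding, of the lysosome and of its proton pump. Fibroblasts of the outer wall, the adventitia, make collagen and other matrix proteins, and mast cells and nerves also lie there. An aortic cell preparation can therefore carry RNA of several cell types besides endothelium, and the comparison asks what differs between offspring that share their own diet but not that of their mothers.

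Endothelial genes took a small share of the reads, and marker genes of other cell types differed widely among the 6 libraries. The 28 measured pan-endothelial genes took 0.0403%, 0.375% and 0.705% of the reads in CD_WD replicates 1, 2 and 3 and 0.292%, 0.184% and 0.277% in WD_WD replicates 1, 2 and 3. Macrophage and monocyte genes (23 members) took 0.346%, 3.46% and 4.5% in CD_WD and 6.16%, 5.72% and 4.51% in WD_WD. Macrophage genes thus held more reads than endothelial genes in each of the 6 libraries. Pecam1, an endothelial adhesion molecule, had 923, 4473 and 9817 normalised counts in CD_WD replicates 1 to 3 and 4277, 2537 and 3172 in WD_WD replicates 1 to 3. Cdh5, the cadherin of endothelial junctions, had 55.8, 433 and 554 against 303, 53.1 and 111, where, as in all values below, the first 3 are CD_WD replicates 1 to 3 and the last 3 WD_WD replicates 1 to 3. Robo4, an endothelial guidance receptor, was at 30.4, 167 and 39.6 against 110.5, 0 and 23.8, and no other pan-endothelial gene was without reads in a library.

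CD_WD replicate 1 had the most B cell RNA of the 6 libraries and the least endothelial, fibroblast and macrophage RNA. Cd79a, a part of the B cell receptor, had 259783, 9342 and 2504 normalised counts in CD_WD and 9460.4, 2499 and 7582 in WD_WD. Cd74, the chaperone of MHC class II molecules, had 2280270.0, 470924 and 407477 against 536939, 353906 and 186348, and Cd3e of T cells 1001, 209 and 52.5 against 396, 95.5 and 1018. By contrast, the fibroblast proteoglycan Dcn had 875, 39803 and 23049 against 10059, 2516 and 5289.8, the macrophage protein Cd68 1085, 14418 and 22903 against 38525, 45454 and 26022, and the smooth muscle myosin Myh11 15.2, 109 and 36.2 against 113, 62.2 and 348. Adgre1, which encodes the macrophage antigen F4/80, was less uneven at 849, 601 and 1402 against 992, 648 and 1996. S100a8 of neutrophils ran from 18062 to 148746 in CD_WD and from 7364 to 131057 in WD_WD. Xist, the noncoding RNA of X inactivation, had a narrow range at 543, 343 and 496 against 308, 461 and 313. In 121 genes CD_WD replicate 1 was over 4 times the highest of the other 5 libraries, and in 480 genes it was under 0.25 times the lowest. WD_WD replicates 2 and 3 were under 0.25 times the lowest other library in 464 and 368 genes. In bulk samples such as these, fewer cells of a type and less RNA per cell cannot be told apart.

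**Figure D1:**
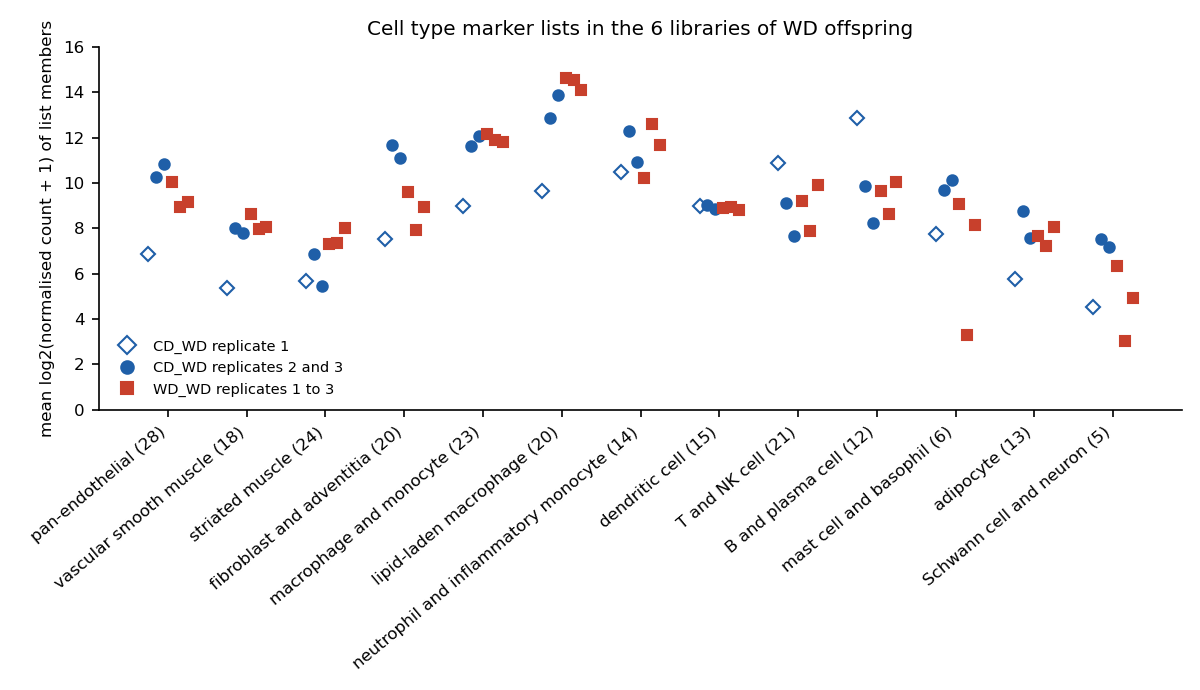
Mean log2(normalised count + 1) of the members of 13 cell type marker lists, with the number of members in brackets, in the 3 CD_WD libraries (blue; the open diamond is replicate 1) and the 3 WD_WD libraries (red squares). CD_WD replicate 1 lies lowest for endothelial, fibroblast and macrophage genes (6.88, 7.51 and 9.0) and highest for B and plasma cell genes (12.89), and WD_WD replicate 2 lies lowest for mast cell genes (3.28).

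No gene passed the test with all 6 libraries compared, and 1 gene did without CD_WD replicate 1. Limma took the spread of each gene from all 12 libraries of the series, those of CD offspring included, or from all but that one. Fitted to WD offspring alone, limma called 0 genes with CD_WD replicate 1 and 0 without it. With all libraries limma called 0 of 10655 genes at an adjusted p under 0.05 (0%), and 628 genes (5.89%) had an unadjusted p under 0.05, 248 higher in WD_WD (2.33%) and 380 lower (3.57%). edgeR also called 0 genes, with 543 (5.1%) at an unadjusted p under 0.05. DESeq2 called 14 (0.131%), 3 of them higher (0.0282%) and 11 lower (0.103%), with 775 (7.27%) at an unadjusted p under 0.05, and 12 of these 14 had a library with at most 3 reads. Without CD_WD replicate 1 limma called 1 gene (0.00939% of those tested), with 892 genes (8.37%) at an unadjusted p under 0.05, 253 higher (2.37%) and 639 lower (6%). edgeR called the same gene, with 743 (6.97%) at an unadjusted p under 0.05. DESeq2 called 75 genes (0.704%) without that library, 6 higher (0.0563%) and 69 lower (0.648%), with 903 (8.47%) at an unadjusted p under 0.05. Of the 75 genes, 16 had a library with at most 3 reads. The 3 libraries of one group lay entirely above those of the other for 624 genes higher in WD_WD (5.86%) and 443 genes lower (4.16%). With 3 libraries against 2, that is without CD_WD replicate 1, this held for 1364 genes higher (12.8%) and 1210 lower (11.4%).

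Leaving the library out kept the sign of most genes but not their size. The log2 fold change, computed from log2(normalised count + 1), had the same sign with and without CD_WD replicate 1 in 8470 genes (79.5%). The median over all genes was -0.03 in both fits, and 47.8% and 48.7% of genes were above 0. Of the 628 genes at an unadjusted p under 0.05 with all libraries, 298 were also there with the same sign without it. The 2 other CD_WD libraries were the most alike of the 6, with r = 0.91 between their log2 values across genes, while WD_WD replicates 2 and 3 had r = 0.73. These correlations are across genes, which are not independent replicates.

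**Figure D2:**
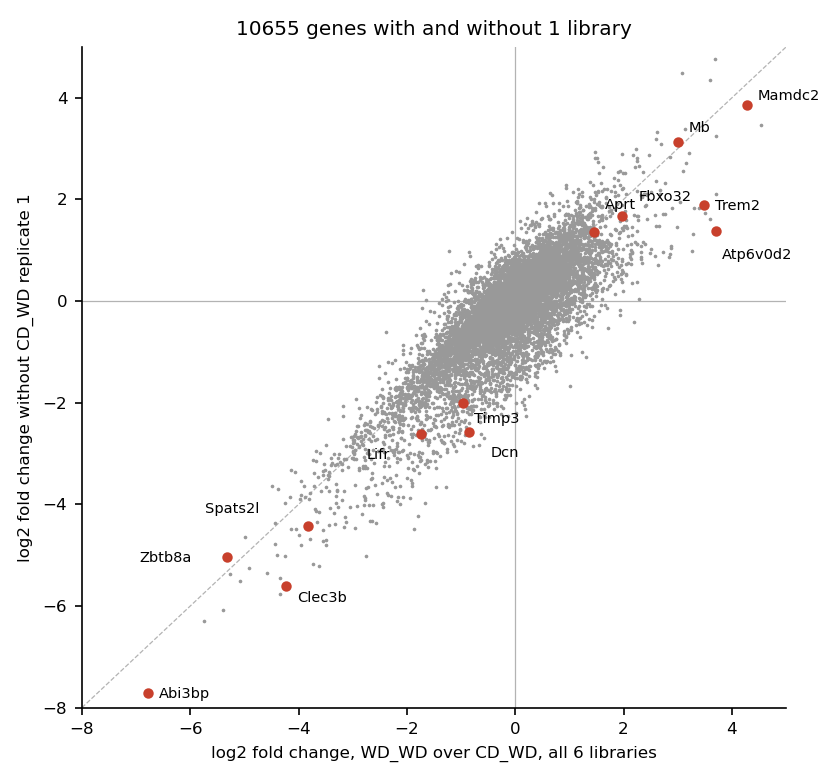
Log2 fold change of WD_WD over CD_WD for each of the 10655 genes with all 6 libraries (horizontal axis) and without CD_WD replicate 1 (vertical axis), with the line of equal values dashed and named genes in red. Genes such as Timp3 and Dcn lie below the dashed line, at -0.96 and -0.86 with all libraries and -2.00 and -2.57 without that library, and Trem2 moves from 3.48 to 1.88.

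Abi3bp, which encodes an extracellular matrix protein of stromal cells, was the one gene called. It lies on chromosome 16 from 56477801 to 56690135 (GRCm38.p6). It had 112, 1084 and 559.5 normalised counts in CD_WD and 0, 3.03 and 11.9 in WD_WD, so the lowest CD_WD library was over the highest WD_WD library. Without CD_WD replicate 1 it fell in WD_WD, with a log2 fold change of -7.71 ± 0.90 (SE) (limma adjusted p = 0.0137). With all libraries the log2 fold change was -6.78 ± 0.94 (SE), which did not pass (limma adjusted p = 0.0836). The call was lost when CD_WD replicate 2 or 3 was left out besides replicate 1, which leaves a lone CD_WD library assumed to vary like the other groups, and in a fit of WD offspring alone. The WD_WD value rests on 0, 2 and 3 reads, against 1212 reads over the 3 CD_WD libraries. Pooled over libraries and scaled by depth, CD_WD was 155 times WD_WD, with a 95% exact interval of 66.3 to 478 that covers counting error alone. In CD offspring the gene had 338, 721 and 542 in the 3 libraries of CD mothers and 498, 556 and 366 in the 3 of WD mothers. The difference between the maternal effects in WD and in CD offspring was -6.65 on the log2 scale for this gene, with an unadjusted p of 0.000261 and a limma adjusted p of 0.997. Over all genes that difference was called for 0 genes by limma (342, or 3.21%, at an unadjusted p under 0.05). In this fit no maternal effect was shown to differ between the offspring diets. It used all 12 libraries, CD_WD replicate 1 included, and the difference was not fitted without that library.

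Among the genes with no overlap, the 12 higher in WD_WD with the smallest p had mixed roles. Mamdc2, a secreted proteoglycan, had 2.54, 2.09 and 22.4 normalised counts in CD_WD and 175, 65.2 and 158 in WD_WD. Its log2 fold change was 4.27 ± 0.92 (SE) with all libraries and 3.85 ± 1.00 (SE) without CD_WD replicate 1 (limma adjusted p = 0.836 and 0.269). Aprt, the adenine phosphoribosyltransferase that returns adenine to the nucleotide pool, had 1202, 1341 and 1581 against 4148, 4201 and 3049. The 3 CD_WD libraries lay within 1202 to 1581 and CD_WD replicate 1 did not stand apart, and the log2 fold change was 1.46 ± 0.36 (SE) with it and 1.37 ± 0.38 (SE) without it. The creatine transporter Slc6a8 had 12.7, 18.8 and 42.2 against 185, 112 and 103, a log2 fold change of 2.52 ± 0.68 (SE). Fbxo32, the muscle ubiquitin ligase also called atrogin-1, had 185, 287 and 415 against 876, 1121 and 1382 (log2 fold change 1.98 ± 0.50, SE). In that gene the lowest WD_WD library (876) was above the highest CD_WD library (415). Rmnd5a, a subunit of the CTLH ubiquitin ligase, had 101, 73.2 and 108 against 259, 258 and 871, with WD_WD replicate 3 highest.

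Other genes of this selection were Fuom, the fucose mutarotase (48.2, 165 and 195 against 712, 378 and 428), Gng12, a G protein gamma subunit (294, 661 and 933 against 1092, 2269 and 1579.8), and Itpripl2 (35.5, 60.7 and 149.8 against 167, 255 and 380.1). Mb, Tnnc1 and Atp6v1b2 also belong to it and are described with their groups. Creg1, a glycoprotein of the lysosome, had 1171, 4001 and 5125 against 11842, 7905 and 10192. In Fuom, Gng12, Itpripl2 and Creg1, CD_WD replicate 1 was the lowest library, and their log2 fold changes were between 1.47 and 2.06 with it and between 1.00 and 1.43 without it. Limma gave each of the 12 genes of this selection an adjusted p of 0.836 with all libraries, while DESeq2 called Mamdc2 and Rmnd5a. Selected without CD_WD replicate 1, the list gained Taf3, a subunit of the general transcription factor TFIID, at 251, 92.1 and 93 against 267, 458 and 321 and a log2 fold change of 1.87 ± 0.46 (SE). It also gained Calm3, which encodes calmodulin (3301, 1607 and 1705 against 3491, 3797 and 3508, log2 fold change 1.12 ± 0.30, SE), S100a1, a calcium-binding protein (611, 4687 and 8398 against 18176, 12761 and 11186, log2 fold change 1.13 ± 0.30, SE), Pigyl of GPI anchor synthesis (705, 381 and 649 against 1092, 1192 and 1334, log2 fold change 1.27 ± 0.35, SE) and Leprotl1 (1116, 349 and 424 against 907, 920.5 and 1730.3, log2 fold change 1.55 ± 0.40, SE). None of these 5 passed limma's test, with adjusted p-values from 0.253 to 0.294, and DESeq2 called Taf3.

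Genes lower in WD_WD with the smallest p included a calcium pump, transcriptional regulators and genes with few reads in WD_WD. Atp2a3, the endoplasmic reticulum calcium pump SERCA3, had 1412, 676 and 1183 normalised counts in CD_WD and 342, 331 and 289 in WD_WD. The 3 WD_WD libraries were nearly equal, and the log2 fold change was -1.70 ± 0.33 (SE) with all libraries and -1.48 ± 0.32 (SE) without CD_WD replicate 1 (limma adjusted p = 0.506 and 0.228). Zbtb7a, a zinc finger repressor, had 588, 492 and 408 against 105, 202 and 123, and the unconventional myosin Myo1c 565, 657 and 629 against 216, 250.2 and 329. Both were at similar levels in CD_WD replicate 1 and in the other CD_WD libraries. Pura, a nucleic acid binding protein, had 152, 83.7 and 52.5 against 12.8, 7.58 and 11.9, and Spats2l 43.1, 190.4 and 127 against 5.14, 6.07 and 7.92. Spats2l rests on 2, 4 and 2 reads in WD_WD. With all libraries DESeq2 called Atp2a3, Pura and Spats2l, and of the genes that follow Zbtb8a and Ift80.

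Other genes of this selection were at or near 0 in 1 or more WD_WD libraries. Zbtb8a, a zinc finger protein, had 190.1, 94.2 and 113 against 2.57, 0 and 7.92, the latter from 1, 0 and 2 reads. Its pooled ratio of CD_WD to WD_WD was 53.5, with an exact interval of 18.1 to 261 for counting error. Abhd14a, a hydrolase, had 91.3, 216 and 402 against 51.4, 0 and 0. The ciliary transport protein Ift80 had 98.9, 69 and 106 against 12.8, 1.52 and 15.8, Fuz, an effector of planar polarity and cilium formation, 162, 188 and 123 against 30.8, 51.6 and 3.96, Gkap1 40.6, 138 and 148 against 23.1, 1.52 and 3.96, and Fam179b 124, 134 and 76.6 against 20.5, 7.58 and 35.6. The reads in the deposited genes numbered 11264156, 7184178 and 18013966 in CD_WD and 7967665, 12487609 and 4074413 in WD_WD. A count of at most 3 reads was found for 303, 58 and 12 genes in CD_WD and for 237, 611 and 757 genes in WD_WD. Of the 443 genes lower in WD_WD without overlap, 122 had a library with at most 3 reads, and of the 624 genes higher 16 did. WD_WD replicate 3 had the fewest reads and the most such genes, and CD_WD replicate 3 the most reads and the fewest. WD_WD replicate 2 had more reads than CD_WD replicates 1 and 2 and more such genes than either. The part of depth in these low values was not tested.

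**Figure D3:**
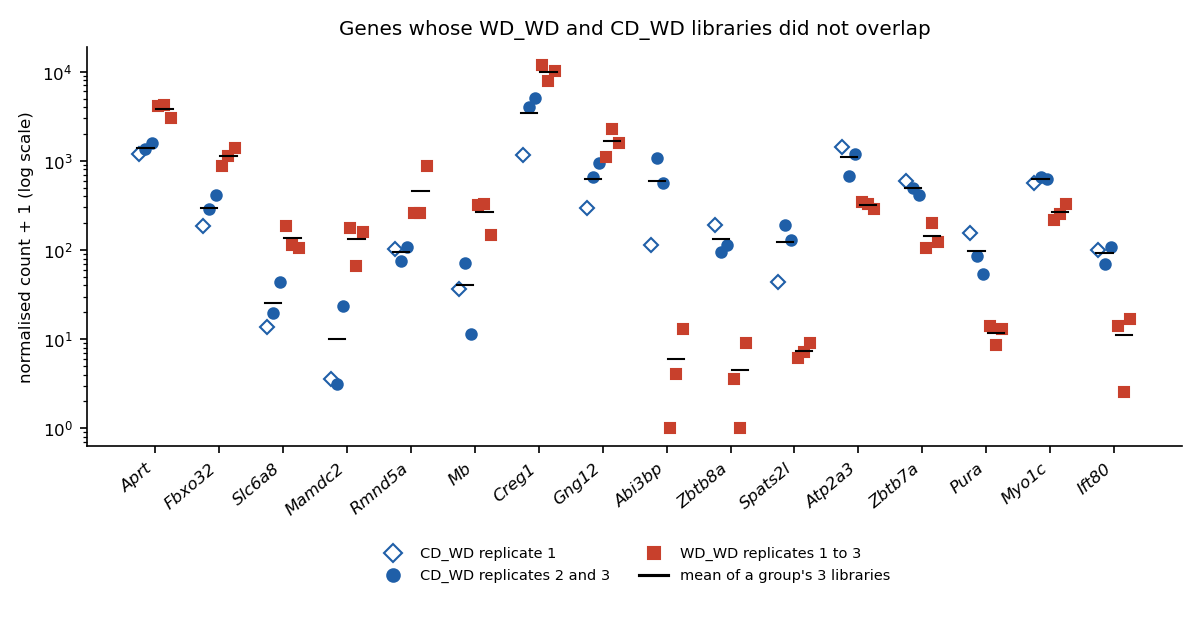
Normalised count + 1 on a log scale for 16 genes whose WD_WD libraries (red squares) and CD_WD libraries (blue; the open diamond is replicate 1) do not overlap, with the mean of each group as a black line. For Aprt, Fbxo32, Slc6a8 and Creg1 the 3 red points lie above the 3 blue points, and for Abi3bp, Zbtb8a and Spats2l they lie between 0 and 11.9 normalised counts.

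Genes of the lysosome and of lipid-laden macrophages were higher in WD_WD, with and without CD_WD replicate 1, and no member passed the test. The lists share members, Ctsd and Ctsl among them, so their results are not independent. Lysosomes are acidified by the V-ATPase, a proton pump of many subunits, and degrade lipids and proteins with acid hydrolases and cathepsins. Their genes share a regulator, TFEB, which binds a short element in their promoters. Promoter windows from RefSeq (GRCm38.p6) were read for the genes of the lysosome list, and 43 of its 57 genes had one. The table holds a window for each annotated start site, and a gene counts where any of its windows holds the element. The element was searched as TCACGTG on both strands, that is also as CACGTGA, in the 250 bases before each start site, and 11 of the 43 genes (25.6%) held it. It was present in 3.58% of the 27025 genes of the promoter table and in 5.92% of the 8192 genes that were tested here and had a window. The longer form TCACGTGA, which contains both, was present in 5 of the 43 (11.6%), against 0.907% and 1.9%. These 5 promoters, each read 5′ to 3′ on the strand of its gene with the element in capitals, were windows of the protective protein cathepsin A (Ctsa), cathepsin D (Ctsd), alpha-galactosidase (Gla), the membrane protein Cln3 and the V-ATPase subunit Atp6v1a:
Ctsa (chr2:164833716-164833772, plus strand): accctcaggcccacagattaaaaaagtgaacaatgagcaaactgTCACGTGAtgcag
Ctsd (chr7:142387874-142387970, minus strand): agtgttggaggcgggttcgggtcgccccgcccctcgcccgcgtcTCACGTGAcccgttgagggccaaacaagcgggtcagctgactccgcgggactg
Gla (chrX:134601148-134601244, minus strand): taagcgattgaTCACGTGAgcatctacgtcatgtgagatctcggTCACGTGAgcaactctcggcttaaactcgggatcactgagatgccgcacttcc
Cln3 (chr7:126583306-126583402, minus strand): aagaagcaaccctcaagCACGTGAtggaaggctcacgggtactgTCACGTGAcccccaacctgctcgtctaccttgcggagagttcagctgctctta
Atp6v1a (chr16:44139339-44139435, minus strand): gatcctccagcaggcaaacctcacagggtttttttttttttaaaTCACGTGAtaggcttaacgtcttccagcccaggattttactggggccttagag
The windows of Ctsa, Cln3 and Atp6v1a precede a start site inside the gene and not its outermost one. A match is a string of letters and not a measured binding site. Genes with TCACGTG were higher in WD_WD for 10 of 11, with a median log2 fold change of 0.89, and genes with a window but no match for 27 of 32, with a median of 0.72. Without CD_WD replicate 1 the medians were 0.37 and 0.46.

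Over the whole list, 50 of 57 lysosomal genes were higher in WD_WD (87.7%, against 47.8% of all genes), with a median log2 fold change of 0.90. Without CD_WD replicate 1 this was 47 of 57 with a median of 0.47, and the groups did not overlap for 21 genes upward (against 12.8% of all genes) and 1 downward (11.4%). Scaled by total reads (CPM) without that library, 39 of 57 were higher with a median of 0.20, where the median of all genes moved to -0.23. The 15 V-ATPase subunits were higher in 15 of 15 with all libraries and without CD_WD replicate 1, at medians of 0.80 and 0.75, and 10 of them did not overlap without it. Atp6v1b2, a subunit of the catalytic sector on chromosome 8 from 69088736 to 69113718, had 421, 989.7 and 1425 normalised counts in CD_WD and 2101, 3685 and 2411 in WD_WD. Atp6v1c1, another subunit of that sector, had 558, 1343 and 2094 against 2643, 5362 and 3080.5, and Atp6v1h 286, 452 and 545 against 853, 834 and 1196. Their log2 fold changes were 1.66 ± 0.48 (SE), 1.60 ± 0.47 (SE) and 1.20 ± 0.37 (SE) with all libraries and 1.16 ± 0.42 (SE), 1.07 ± 0.38 (SE) and 0.93 ± 0.36 (SE) without CD_WD replicate 1. In each of the 3 genes the lowest WD_WD library was above the highest CD_WD library. Of 10 cathepsins 8 were higher in both fits, with medians of 1.22 and 0.72. Ctsl, cathepsin L, had 581, 9926 and 18880.2 against 47122, 38808 and 29217, a log2 fold change of 2.98 ± 0.95 (SE) and, without CD_WD replicate 1, 1.46 ± 0.43 (SE) (limma adjusted p = 0.836 and 0.332).

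The 5 genes whose promoters are shown did not separate the groups as cleanly. Ctsd had 3925, 32314 and 84476 against 154654, 140324 and 62686, so WD_WD replicate 3 lay below CD_WD replicate 3. Ctsa had 5101, 13169 and 13475 against 15509.6, 25992 and 8145, Cln3 279, 471 and 584 against 560.0, 836 and 550.4, and Atp6v1a 292, 1055 and 1273 against 1061, 1680.2 and 1402, and these also overlapped. Gla had 758, 1544 and 1183 against 1721, 3477 and 3496 and did not overlap. These genes were chosen for their promoters, after their values were known.

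Lipid-laden macrophage genes were higher in WD_WD for 19 of 20 with all libraries (median log2 fold change 2.33) and for 17 of 20 without CD_WD replicate 1 (1.18). The groups did not overlap for 9 members in either case: Trem2, Gpnmb, Spp1, Fabp5, Ctsl, Cd63, Atp6v0d2, Cstb and Syngr1. Over all genes 5.86% were higher without overlap with all libraries and 12.8% without CD_WD replicate 1. Genes separated with all libraries stay separated when 1 is left out, so the repeat adds nothing. Trem2, the lipid receptor that marks foam cells, had 98.9, 2084 and 3720.3 normalised counts in CD_WD and 13963, 8844 and 8786 in WD_WD. Gpnmb, a glycoprotein of lipid-loaded macrophages, had 388, 13218 and 42050.5 against 85346, 91343 and 49275, and Spp1, which encodes osteopontin, 1868, 67728 and 79756 against 122261, 539967 and 223785. The 3 CD_WD libraries differed widely among themselves in these genes, and Gpnmb in CD_WD replicate 3 was close to its value in WD_WD replicate 3. Fabp5, a fatty acid binding protein, had 3752, 21271 and 46505 against 113694, 112250.0 and 84435, with a log2 fold change of 2.73 ± 0.81 (SE) and of 1.70 ± 0.60 (SE) without CD_WD replicate 1. The macrophage isoform of the membrane sector of the V-ATPase, Atp6v0d2, had 12.7, 1111 and 2809.6 against 4331, 5333 and 4193. Syngr1 had 91.3, 1394 and 2689.9 against 7973, 6427 and 6494, the tetraspanin Cd63 2604, 16042 and 31451 against 56434, 55456 and 40941, and Cstb, the cathepsin inhibitor cystatin B, 3167, 7177 and 9572 against 19517, 22762 and 12662.

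The broader macrophage and monocyte list moved less without CD_WD replicate 1. It was higher for 21 of 23 members with all libraries (median 1.21) and for 15 of 23 without that library (0.44). Without that library 7 members lay without overlap upward and 2 downward, against 12.8% and 11.4% of all genes. Ms4a7, a macrophage surface protein, had 98.9, 3413 and 5105 against 10439, 8297 and 8014. Mean log2 levels of this list were 9.0, 11.63 and 12.06 in CD_WD and 12.17, 11.92 and 11.80 in WD_WD, so CD_WD replicate 3 was at the level of WD_WD. Those of the lipid-laden list were 9.64, 12.85 and 13.88 in CD_WD and 14.62, 14.57 and 14.10 in WD_WD, and did not overlap. As a share of reads the lipid-laden list did overlap, at 0.151%, 2.55% and 6.4% against 9.47%, 8.85% and 6.02%. The part of the amount of macrophage RNA in the lysosomal values was not tested.

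Striated muscle genes were higher in WD_WD in both fits, from low levels. Of 24 members 21 were higher with all libraries (median log2 fold change 1.74) and 20 without CD_WD replicate 1 (1.38). In either fit 7 were higher without overlap, against 5.86% and 12.8% of all genes: Mb, Acta1, Tnni2, Tnnt3, Tnnc1, Tnnc2 and Mylpf. Myoglobin (Mb), the oxygen-binding protein of muscle, had 35.5, 71.1 and 10.3 normalised counts in CD_WD and 321, 323 and 146 in WD_WD, a log2 fold change of 3.0 ± 0.76 (SE) with and 3.12 ± 0.84 (SE) without CD_WD replicate 1. Tnnc1, the troponin C of heart and slow muscle, had 0, 23 and 2.58 against 103, 355 and 27.7. The ventricular myosin light chain Myl3 had 5.07, 31.4 and 6.89 against 20.5, 232 and 697, and the atrial myosin heavy chain Myh6 27.9, 83.7 and 25.8 against 79.6, 388 and 265; both overlapped through WD_WD replicate 1. Of the regulators of the muscle calcium pump, Pln, phospholamban, had 2.54, 20.9 and 4.3 against 51.4, 44 and 107, and Sln, sarcolipin, 27.9, 4.18 and 0.861 against 265, 12.1 and 170.3. The list took 0.0114%, 0.0284% and 0.0137% of the reads in CD_WD and 0.0334%, 0.0363% and 0.0668% in WD_WD. Pln is a member of the vascular smooth muscle list. Of the 18 genes of that list 17 were higher with all libraries (median 1.00) and 10 without CD_WD replicate 1 (0.15). The part of adhering muscle tissue in the values of these muscle genes was not tested.

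Fibroblast genes were lower in WD_WD throughout the list without CD_WD replicate 1. All 20 measured fibroblast and adventitia genes were lower in that fit, 18 of them without overlap (against 11.4% of all genes), and the median log2 fold change was -2.34. With all libraries 17 of 20 were lower, 2 without overlap (against 4.16% of all genes), and the median was -1.09. Clec3b, tetranectin, had 58.3, 1442 and 787 normalised counts in CD_WD and 59.1, 1.52 and 67.3 in WD_WD. Its log2 fold change was -5.61 ± 1.19 (SE) without CD_WD replicate 1 and -4.22 ± 1.32 (SE) with all libraries. Col1a2, a chain of type I collagen, had 210.4, 4224 and 1932 against 1230.4, 193 and 388. Its log2 fold change was -2.66 ± 0.59 (SE) without CD_WD replicate 1 and -1.41 ± 0.89 (SE) with all libraries. The microfibril protein Mfap4 had 183, 4856 and 2208 against 1040.3, 103 and 463 (log2 fold change -3.15 ± 0.75, SE, without CD_WD replicate 1). In these 3 genes CD_WD replicate 1 lay among the WD_WD libraries. Ly6a, a surface protein of adventitial progenitors and of endothelium, had 23018, 18389.8 and 32966 against 12918, 7026 and 13149 and did not overlap with all libraries. Fibrillar and microfibril collagens were lower for 9 of 9 without CD_WD replicate 1 (median -2.24), and basement membrane collagens, laminins and their partners for 9 of 11 (-0.46). With all libraries the same groups had medians of -1.15 and 0.22.

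Besides Abi3bp, the lower genes with the smallest p without CD_WD replicate 1 were led by Timp3 and Lifr. Timp3, the matrix-bound inhibitor of metalloproteinases, on chromosome 10 from 86300412 to 86349505, had 269, 2264 and 2458 normalised counts in CD_WD and 735, 459 and 602 in WD_WD. Its log2 fold change without CD_WD replicate 1 was -2.00 ± 0.29 (SE) (limma adjusted p = 0.0579), and -0.96 ± 0.66 (SE) with it (0.879). Lifr, the receptor of leukemia inhibitory factor, on chromosome 15 from 7090610 to 7197489, had 71, 456 and 424 against 53.9, 56.1 and 119, a log2 fold change of -2.61 ± 0.39 (SE) without that library (adjusted p = 0.0629). Neither passed limma's test, and each was under 0.05 in 6 of 16 alternatives, DESeq2 and TMM scaling among them. The serine protease Prss23 had 40.6, 1157 and 1152 against 362, 200.2 and 329, the tetraspanin Cd81 3174, 10175 and 11739 against 4829, 4082 and 3433, and the surface protein Ly6c1 2097, 13094 and 18121 against 6591, 2825 and 3872. In each of these 5 genes CD_WD replicates 2 and 3 were close to each other and above the 3 WD_WD libraries, while CD_WD replicate 1 was below 1 or more of them. Among proteases, Plau, the urokinase, was higher in WD_WD at 48.2, 188 and 439 against 529, 839 and 804, and so was cathepsin K (Ctsk) at 15.2, 962 and 816 against 1097, 2475 and 1117, neither with overlap.

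Endothelial genes were lower in WD_WD without CD_WD replicate 1 as well. All 28 pan-endothelial genes were lower in that fit, 15 without overlap (against 11.4% of all genes), with a median log2 fold change of -1.01, whereas with all libraries 16 of 28 were higher with a median of 0.15. Cdh5, given above, had -2.00 ± 0.56 (SE) without CD_WD replicate 1, and Ccm2l, an endothelial regulator of heart and vessel growth, had 68.5, 385 and 574 against 113, 98.6 and 95 (log2 fold change -2.19 ± 0.44, SE). Gpihbp1, which anchors lipoprotein lipase to capillary endothelium, had 771, 3565 and 644 against 568, 159 and 467 and did not overlap in either fit. Arterial and Notch genes were lower for 15 of 15 without CD_WD replicate 1 (median -1.02) and for 9 of 15 with it (-0.09). Jag1, a Notch ligand, had 48.2, 90.0 and 261 against 46.2, 62.2 and 59.4, and Smad1, a mediator of BMP signals, 98.9, 314 and 329.7 against 108, 74.3 and 119. The leukocyte adhesion list had medians of 0.40 with all libraries and -0.72 without CD_WD replicate 1.

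Of 14 VEGF and angiopoietin genes 1 was higher and 1 lower in WD_WD without overlap with all libraries, against 5.86% and 4.16% of all genes. Without CD_WD replicate 1 this was 1 higher and 5 lower, against 12.8% and 11.4%. In sign the list changed, from 9 of 14 genes higher with all libraries (median log2 fold change 0.49) to 3 of 14 without CD_WD replicate 1 (-0.69). Limma called 0 of the 14 genes in either fit. Vegfa, the main endothelial growth factor, had 134, 249 and 118 normalised counts in CD_WD and 347, 502 and 447 in WD_WD, without overlap, and a log2 fold change of 1.43 ± 0.67 (SE) (limma adjusted p = 0.836). Figf, the older symbol of the lymphatic growth factor VEGF-D, had 27.9, 138 and 101 against 0, 4.55 and 0, the latter from 0, 3 and 0 reads. The pooled ratio of CD_WD to WD_WD for Figf was 41.4, with an exact interval of 13.9 to 202 for counting error, and its limma adjusted p was 0.506 (0.0222 by DESeq2). Pgf, placental growth factor, had 22.8, 159 and 342 against 157, 0 and 0, so WD_WD replicate 1 was at the level of CD_WD replicate 2.

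**Figure D4:**
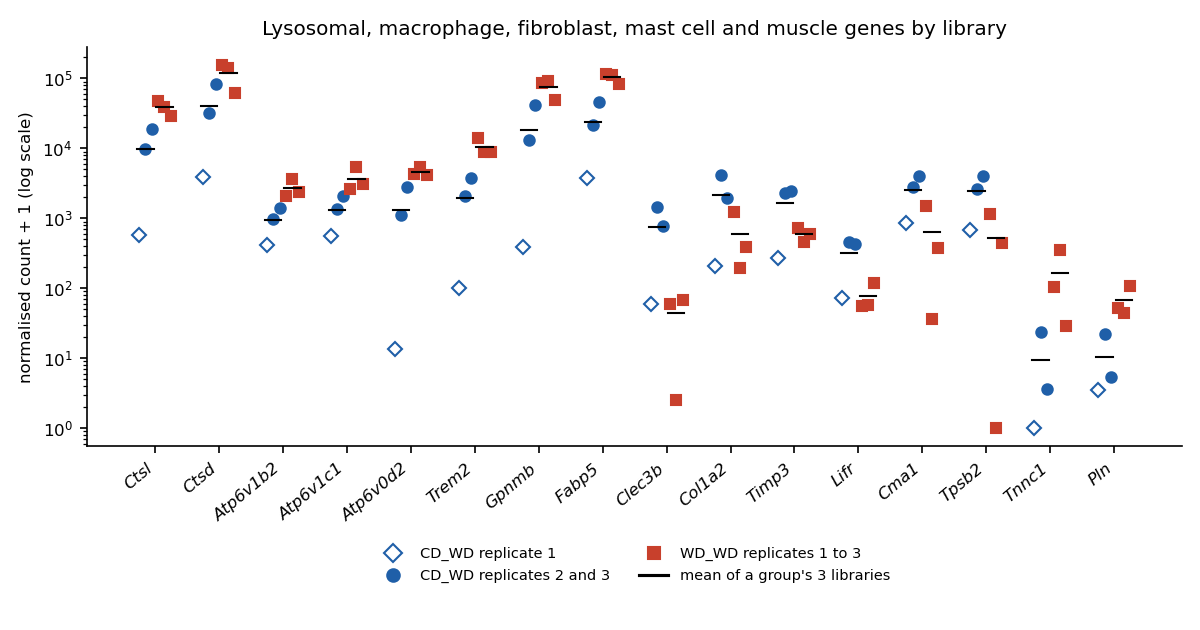
Normalised count + 1 on a log scale in each library for lysosomal and macrophage genes (Ctsl to Fabp5), fibroblast and matrix genes (Clec3b to Lifr), mast cell genes (Cma1, Tpsb2) and muscle genes (Tnnc1, Pln), with blue for CD_WD, the open diamond for its replicate 1, red squares for WD_WD and a black line for each group's mean. The open diamond lies lowest for the macrophage genes, such as 98.9 for Trem2, and among or below the red squares for Clec3b, Col1a2 and Timp3.

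Mast cell and nerve genes were lower in WD_WD in both fits, and lowest in WD_WD replicate 2. All 6 mast cell and basophil genes were lower with all libraries (median log2 fold change -3.01) and without CD_WD replicate 1 (-3.84). The protease genes Cma1 (chymase) and Tpsb2 (tryptase) had 847, 2779 and 4061 against 1474, 34.9 and 380.1, and 674, 2597 and 4053 against 1143, 0 and 443. Cpa3, the mast cell carboxypeptidase, had 236, 1889 and 2829 against 727, 3.03 and 618, and the chymase Mcpt4 109, 699 and 1106 against 390.4, 0 and 384. All 4 overlapped with all libraries, through CD_WD replicate 1, and not without it. Without that library 4 of the 6 genes were thus lower without overlap, against 11.4% of all genes. The median with all libraries was -0.45 without WD_WD replicate 2, so its size rests on that library. In CD_WD the mean log2 levels of the list were 7.76, 9.69 and 10.15, and in WD_WD they were 9.05, 3.28 and 8.14. The 5 Schwann cell and neuron genes were also lower in 5 of 5 (medians -1.29 and -1.78), such as S100b with 15.2, 379 and 158 against 167, 3.03 and 0.

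A further set of genes was near 0 in WD_WD replicates 2 and 3 and, Abi3bp aside, not in WD_WD replicate 1. Leaving out WD_WD replicate 1 raised the count of called genes from 0 to 10, each lower in WD_WD, among them Abi3bp, Abhd14a, Mgme1, Igsf3, Penk, Lrrn4cl, Epdr1, Ric8b and Pex3. Penk, which encodes proenkephalin, had 127, 412 and 155 normalised counts in CD_WD and 298, 0 and 0 in WD_WD, and Pex3, a peroxisome assembly factor, 109, 113 and 207 against 152, 4.55 and 3.96. Mgme1, a mitochondrial exonuclease, had 55.8, 48.1 and 94.7 against 97.6, 0 and 0, with WD_WD replicate 1 above each CD_WD library. In WD_WD the values were 136, 0 and 3.96 (Igsf3), 69.4, 1.52 and 3.96 (Lrrn4cl), 203, 3.03 and 0 (Epdr1) and 51.4, 1.52 and 3.96 (Ric8b). Each of the 10 genes had a library with at most 3 reads.

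Cytosolic ribosomal genes were higher in WD_WD without CD_WD replicate 1 and mostly lower with it, and mitochondrial genes were mostly higher without it. Of 76 cytosolic ribosomal protein genes 13 were higher in WD_WD with all libraries (median log2 fold change -0.12) and 75 were without that library (0.63), 49 of them without overlap (against 12.8% of all genes). The list means were 14.51, 12.22 and 12.02 in CD_WD and 13.05, 12.39 and 12.74 in WD_WD, so CD_WD replicate 1 was highest, as it was for B cell genes. Mitochondrial ribosomal proteins were higher for 55 of 76 with all libraries (median 0.20) and for 61 of 76 without it (0.43, 32 without overlap, against the same share). Mrpl14 of the large mitochondrial subunit had 1100.3, 843 and 688 against 1482, 1501 and 1536, and Mrpl52 3385, 2151 and 2182 against 4588, 5361 and 3381. Respiratory complex I subunits were higher for 23 of 36 (0.14) and 33 of 36 (0.47), those of complexes II to IV for 16 of 25 (0.09) and 23 of 25 (0.39), and those of ATP synthase for 8 of 16 (-0.01) and 16 of 16 (0.38). The medians of complex I and of complexes II to IV were below 0 (-0.03 and -0.08) without CD_WD replicate 2, and also (-0.01 and -0.09) without CD_WD replicate 3. Sdha, the flavoprotein of complex II, had 1592, 1262 and 1353 against 1968, 2005 and 2186 with a log2 fold change of 0.55 ± 0.25 (SE), and Ndufb6 of complex I 3392, 2061 and 2711 against 4025, 3765 and 3148. Proteasome subunits were higher for 23 of 31 in both fits (0.24 and 0.27), such as Psmb6 with 12948, 8196 and 11097 against 18196, 18348 and 15834. These medians are small: scaled by total reads (CPM) without CD_WD replicate 1 they were 0.36 for ribosomal, 0.16 for mitochondrial ribosomal, 0.20 for complex I, 0.12 for complexes II to IV, 0.10 for ATP synthase and 0.0003 for proteasome genes, with that of all genes at -0.23.

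The series title names epigenetic memory, and genes of chromatin modification were counted for that reason. Of 32 genes of DNA and histone methylation 20 were lower in WD_WD with all libraries (median log2 fold change -0.31) and 18 without CD_WD replicate 1 (-0.02). Ehmt1, a histone H3 lysine methyltransferase, had 221, 167 and 126 normalised counts in CD_WD and 23.1, 74.3 and 51.5 in WD_WD, and Ezh1 of the Polycomb repressive complex 165, 268 and 158 against 77.1, 19.7 and 95. With all libraries Suz12 and Kmt2c were the other 2 members that were lower without overlap, and Dnmt3b the 1 that was higher. So 4 of 32 were lower and 1 higher in that fit, against 4.16% and 5.86% of all genes. Without CD_WD replicate 1, 4 of 32 were lower and 3 higher without overlap, against 11.4% and 12.8% of all genes. Dnmt3a, a DNA methyltransferase, had 200.3, 404 and 1089 against 1320.3, 2561 and 923, with overlap through CD_WD replicate 3, and the demethylase Kdm2a 421, 337 and 239 against 285, 92.5 and 99. Of 31 genes of histone acetylation and its readers 20 were lower with all libraries (-0.23) and 18 without CD_WD replicate 1 (-0.12). Sirt1, a deacetylase, was the 1 of 31 members without overlap, a share below that of all genes, at 134, 64.9 and 145 against 311, 241 and 412, and Hdac9 had 93.8, 75.3 and 53.4 against 64.2, 19.7 and 0. None passed, and the smallest limma adjusted p of both lists was 0.836 with all libraries.

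Antigen presentation genes were lower in WD_WD, with CD_WD replicate 1 the highest library. MHC class I presentation genes were lower for 14 of 15 with all libraries (median log2 fold change -0.58) and for 12 of 15 without it (-0.30). H2-K1, a class I heavy chain, had 229050.0, 53652 and 58623 normalised counts in CD_WD and 54058, 33115 and 20090.3 in WD_WD, and H2-D1 106637, 45128 and 54972 against 45394, 36574 and 18138. H2-M3, a nonclassical class I gene, had 2038, 965 and 1327 against 861, 352 and 665 without overlap. MHC class II genes were lower for 10 of 10 with all libraries (-0.84) and for 4 of 10 without it (0.02). B and plasma cell genes likewise went from 10 of 12 lower (-1.07) to 10 of 12 higher (0.36). Abundant genes lower in WD_WD showed the same library: Plcg2, a signalling enzyme of B cells, had 8059.7, 1044 and 1363 against 927, 955 and 384, Tspan32, a tetraspanin of blood cells, 7461, 588 and 569 against 493, 482 and 269, and the ubiquitin ligase Mycbp2 4868, 586 and 611 against 583, 444 and 333. Ly6e, an interferon-inducible surface protein, had 117480.0, 41291 and 56035 against 36722, 17691 and 26287, and Mlxip, a glucose-sensing transcription factor, 2434, 1219.8 and 708 against 619, 605 and 432. Egr1, an immediate-early transcription factor, had 44248, 22828 and 37784 against 13275, 15823 and 10714, with log2 fold changes of -1.36 ± 0.39 (SE) and, without CD_WD replicate 1, -1.16 ± 0.32 (SE).

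**Figure D5:**
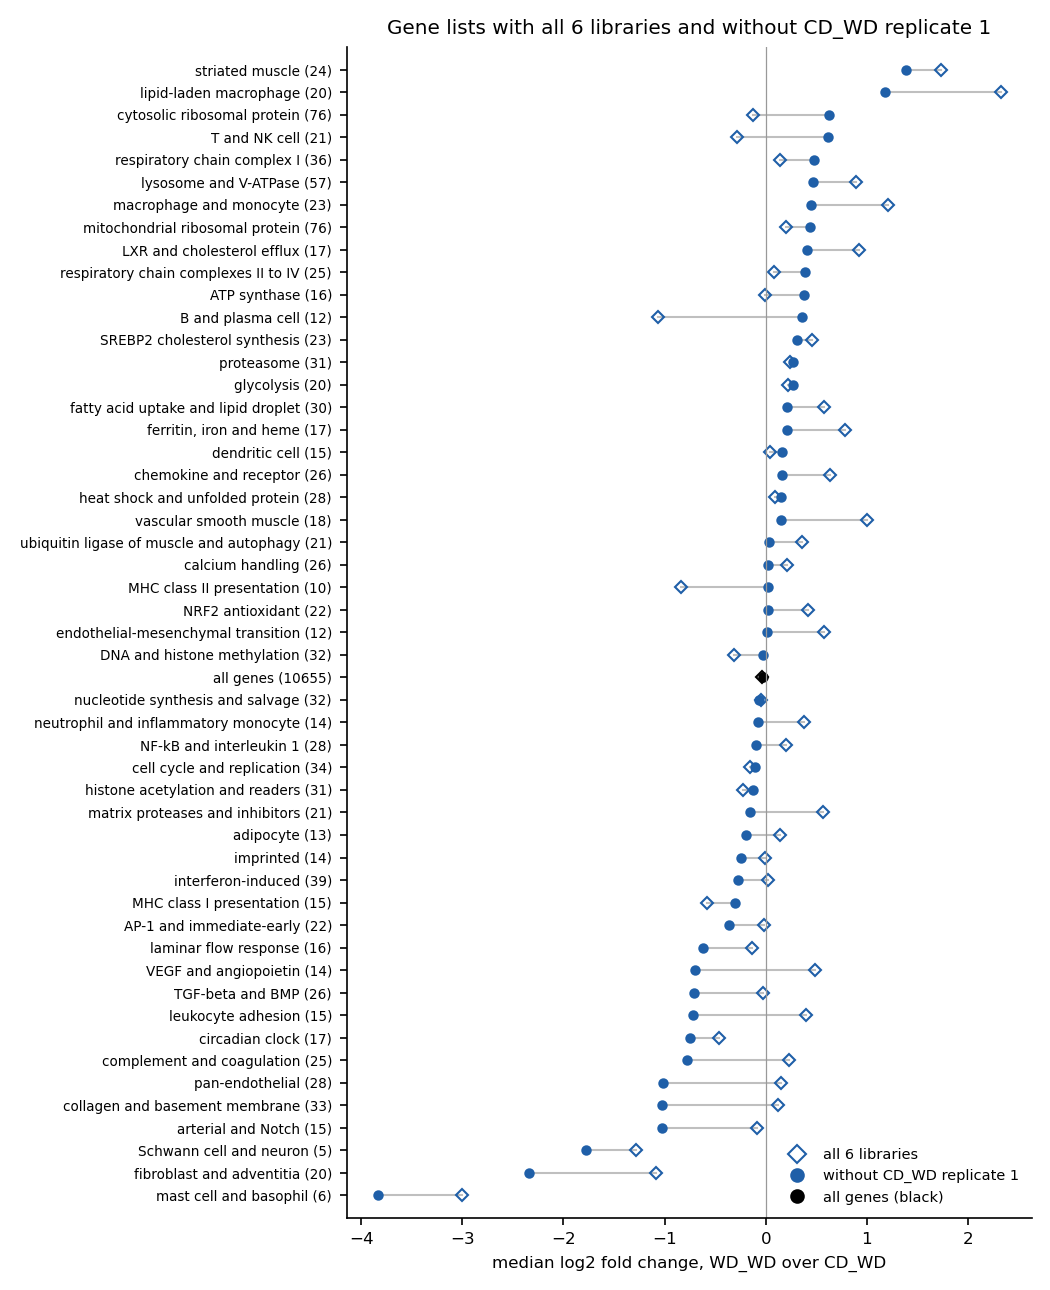
Median log2 fold change of WD_WD over CD_WD for 50 gene lists, with the number of members in brackets, with all 6 libraries (open diamonds) and without CD_WD replicate 1 (filled circles), and for all genes in black. Lipid-laden macrophage (2.33 and 1.18) and striated muscle lists (1.74 and 1.38) lie to the right in both, mast cell (-3.01 and -3.84) and fibroblast lists (-1.09 and -2.34) to the left, and pan-endothelial and ribosomal lists cross 0.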

How the data were processed

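RNA of mouse aortic endothelial cells was sequenced in 12 libraries, 6 of them from offspring given WD. Per the submitters' processing notes the tools include featureCounts 2.0.1, HISAT2 2.2.1, DESeq2, SAMtools 1.13, Trim Galore 0.6.10 and FastQC 0.12.1, with the builds GRCm38 and mm10. Settings, strand handling and gene filter: not given in the sources used here. For each gene and library the authors deposited a normalised signal, which is a read count divided by a size factor: 100% of the values were whole multiples of 1 read within a tolerance of 0.01, and the reads recovered this way served edgeR 4.0.16 and DESeq2 1.42.0. The log2 fold changes and p-values of the authors' deposited table were not used. Date-like entries stood in place of 18 symbols, 1 of them repeated.

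The test was limma 3.58.1 (R 4.3.3) with a mean-variance trend on log2(value + 1), fitted to all 12 libraries with a mean per group (8 residual degrees of freedom) and again without CD_WD replicate 1 (7). A fold change on this scale understates the change of low genes. P-values were adjusted by Benjamini-Hochberg over all 10655 genes and called under 0.05; a planned filter, a mean of at least 1, removed 0 genes. Fitting was tested on simulated data.

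Named genes were, among genes whose groups do not overlap with a mean of at least 50, the 12 with the smallest p in each direction, 8 in each direction without CD_WD replicate 1, and the 8 largest folds in each direction at a mean of at least 1000. Up to 4 genes with the smallest p of each of 53 gene lists, genes called with 1 library left out, and fixed markers were added; lists named by their separated members are exceptions. Members and lists were chosen with earlier results of these data known. Gene positions and promoter windows are from RefSeq (GRCm38.p6). Alternatives covered the pseudocount, filter, weights, scaling, libraries, block and tool.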

Additional observations from a re-analysis of the deposited data

How the results depend on the processing

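With all libraries the count of called genes was 0 under other pseudocounts, other filters, WD offspring alone, other scalings and edgeR. It was 2 with array quality weights, 14 with DESeq2, and 0 to 10 with 1 library left out, the 10 being without WD_WD replicate 1 and 1 each without CD_WD replicate 1 and WD_WD replicate 3. With the replicate number as a block it was 1 (Abi3bp). Without CD_WD replicate 1 the count of 1 became 2 at a pseudocount of 10, 0 in WD offspring alone, 3 with weights, 51 scaled by total reads (0 higher), 3 with TMM scaling and 75 with DESeq2. With the replicate block it was 0; equal numbers did not deviate together (r = -0.0985, -0.0375 and -0.122 across genes), so samples share only a number. With 1 more library left out it was 0 to 162, the 0 being without CD_WD replicate 2 or 3 and the 162 being without WD_WD replicate 1 (2 higher), where 62 had a library with at most 3 reads. The adjusted p of Abi3bp without CD_WD replicate 1 was under 0.05 in 12 of 16 alternatives and reached 0.782. Of the 2581 values of 137 named genes under alternatives, 2510 kept direction and side of the threshold, 53 passed it, 4 (each of Abi3bp) lost it and 14 reversed. With 1 library left out, log2 fold changes ran from -0.16 to 0.65 for Adgre1, -0.44 to 1.68 for Cd3e, -3.13 to 0.22 for Cd79a, -2.57 to 0.19 for Dcn, -1.03 to 0.68 for Pecam1, -2.00 to 0.40 for Prss23 and -1.05 to 1.03 for S100a8 (0.022 with DESeq2). Of 53 list medians 17 changed sign without CD_WD replicate 1, 29 without 1 of the 6 libraries, and 24 kept it. Centring 4 endothelial lists on the pan-endothelial mean shifts all genes alike, so its signs were not read. Where a single library decided a value, the cause was not tested. With 3 libraries or 2 in a group and as few as 4074413 reads in WD_WD replicate 3, genes at a few reads cannot be measured well.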

Other observations

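Genes of the lipid handling lists were mostly higher in WD_WD with all libraries. Of 17 genes of cholesterol efflux and the nuclear receptor LXR 14 were higher (median log2 fold change 0.93), and 12 without CD_WD replicate 1 (0.41). Lipa, the lysosomal acid lipase that releases cholesterol from stored esters, had 332, 1291 and 2175 normalised counts in CD_WD and 3023, 3565 and 3211 in WD_WD. The cholesterol exporter Abca1 had 745, 981 and 1296 against 1831, 2760.0 and 1326, with WD_WD replicate 3 barely above CD_WD replicate 3. Soat1, the enzyme that makes cholesteryl esters, overlapped at 256, 435 and 832 against 678, 1301 and 1501. Fatty acid uptake and lipid droplet genes were higher for 25 of 30 (0.57) and 17 of 30 without CD_WD replicate 1 (0.21, and -0.06 scaled by total reads). Fabp3, the heart-type fatty acid binding protein, had 33, 149 and 87.8 against 269.7, 537 and 190.1, and Hadhb of mitochondrial beta-oxidation 461, 649 and 901 against 1102, 1262 and 1671. Genes of ferritin, iron and heme were higher for 13 of 17 (0.78) and 9 of 17 without CD_WD replicate 1 (0.21, and -0.06 scaled by total reads), such as the phagosomal metal transporter Slc11a1 at 185, 1226 and 1432 against 1608, 3034 and 2625. Cholesterol synthesis genes under SREBP2 were higher for 17 of 23 (0.46) and 16 of 23 (0.31). None of these genes passed the test, with a smallest limma adjusted p of 0.836 with all libraries.

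With all libraries, clock and cell cycle genes separated the groups about as often as all genes did (5.86% higher and 4.16% lower). In that fit 1 of 17 clock genes was higher and 1 lower without overlap, and 2 of 34 cell cycle genes were higher and 3 lower. Without CD_WD replicate 1, 2 of 17 clock genes were higher and 4 lower without overlap, against 12.8% and 11.4% of all genes. For cell cycle genes this was 4 of 34 higher and 4 lower. The clock transcription factor Clock had 73.5, 81.6 and 52.5 against 244, 224 and 83.1, and its repressor Cry2 218, 295 and 456 against 200.4, 51.6 and 174, both without overlap and in opposite directions. Tef, a clock output gene, overlapped at 83.7, 174 and 208 against 89.9, 22.7 and 47.5, and 11 of 17 clock genes were lower without CD_WD replicate 1 (median -0.75), against a median of -0.46 with all libraries, -0.15 without CD_WD replicate 2 and -0.12 without CD_WD replicate 3. The labels give no time of day for any library. Cyclins D2 and D3 were lower without overlap, Ccnd2 at 9277, 3057 and 4126 against 2389, 1703 and 2696 and Ccnd3 at 2294, 3076 and 1653 against 1269, 1375 and 1572. The nuclear receptor Nr4a2 had 355, 481 and 583 against 1143, 2122 and 1318, the stress transcription factor Ddit3 1721, 1136 and 1451 against 3088, 1905 and 2985, and thioredoxin (Txn1) 6577, 4526 and 7534 against 13175, 12066 and 9138, each higher without overlap. Among chemokines, Ccl5 of T cells had 13356, 5528 and 3518 against 3290.5, 3148 and 1952 without overlap, and Ccl11, the eosinophil attractant eotaxin, 50.7, 695 and 393 against 185, 1.52 and 95. Ccl2, the monocyte attractant, had 1088, 11290.4 and 19416 against 11636, 32188 and 12247 and overlapped. Each of these genes had a limma adjusted p of 0.836 or above with all libraries.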
